A study of Mus musculus with 6 samples.

Results

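Immediate early genes were examined in cultured cells of the mouse ventral midbrain in which the circular RNA circRmst had been targeted with a hairpin. Their list holds 31 genes that nerve cells and other cells switch on soon after activity or a growth factor. The genes were taken by name from the count tables, all 31 have a row among 42396, and 27 passed the filter on low counts, out of 17439 genes tested. The 4 that did not pass were Fosl1, Jund, Egr2 and Egr4.

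The cells were primary cultures from wild-type embryos at embryonic day 14, plated at 150000 cells per well. The knockdown cultures received a lentivirus with the hairpin pll3.7-shRmstI against circRmst, and the control cultures a lentivirus with the scramble hairpin pll3.7-Scr2. Both groups were infected on the day of plating at a multiplicity of 5 and harvested after 3 days in vitro, with 3 libraries each of RNA depleted of ribosomal RNA. Counts per gene do not separate the circle from the linear Rmst transcript, so the strength of the knockdown was not checked here. The series asks how lowering circRmst affects the shape, migration and gene expression of these neurons. Per the labels, 3 independent cultures were sequenced, and 2 to 3 wells were harvested per condition. Which libraries come from the same culture is not labelled. The labels give no stimulus of the cells beyond the virus, so the levels are those of cultures left in their medium.

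Immediate early genes need no new protein to be transcribed. Calcium entry and growth factor receptors act through kinases on transcription factors that already sit on their promoters, CREB on cyclic AMP response elements and SRF with its partners on serum response elements. Most of the products are transcription factors that pass the signal on to later genes, and others, such as the dual specificity phosphatases, switch the kinases off again. In the brain the genes serve as markers of neurons that have recently fired.

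Counts assigned to genes summed to between 35256611 and 43646521 in the knockdown libraries and between 27248934 and 41982557 in the control libraries. The cultures held more than the labelled dopamine neurons. Summed over the 14 general neuron markers, levels were 6953 to 8090 CPM (counts relative to library size, scaled by TMM) in the knockdown and 7182 to 7881 CPM in the control. The 12 dopamine neuron markers summed to 725 to 875 CPM in the knockdown and 744 to 870 CPM in the control, and none of them was at 0. Markers of astrocytes and radial glia summed to 2250 to 2422 CPM in the knockdown and 2077 to 2468 CPM in the control. In such mixed cultures, fewer cells of a type and less RNA per cell cannot be told apart.

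Promoters were looked up in RefSeq's GRCm38.p6 table, in a window from 250 bases before to 50 after the start of transcription. Of the 31 genes, 23 had an entry. Those without were Fosl1, Egr1, Egr3, Arc, Ier2, Dusp4, Sik1 and Crem. The core of the cyclic AMP response element, TGACG on either strand and outside a full element, was present in 14 of the 23 (60.9%), against 21.7% of the 27025 genes in the table. The full element TGACGTCA was in 2 of 23, Dusp1 and Maff, against 2.03% of all genes. The serum response element was in 2 of 23, Egr2 and Dusp5, against 1.81% of all genes. Elements more than 250 bases before the start lie outside the window and were not searched. An Egr site, GCGNGGGCG on either strand, was in 7 of 23, against 6.27% of all genes, and in these genes its matches did not overlap those of the core. An AP-1 site, TGANTCA with C or G as the free base, was in 0 of 23, against 5.95% of all genes. The sense TATA box TATAAA was in 4 of 23, against 9.77% of all genes. A gene with several starts counted once if any of them held the motif, and the core and the Egr site contain CG, so they turn up more often in promoters rich in CG. A match is a description of the letters and no measurement of binding.

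The promoters of 4 of these genes show the layout, and are given up to the last base before the start, in the direction of transcription. Capitals mark TGACG and TATAAA in Fos, a tandem pair of serum response elements and a TGACG on the other strand in Dusp5, the full TGACGTCA in Dusp1, and an Egr site between copies of TGACG, all on the other strand, in Nr4a1. They lie in GRCm38.p6 at chr12:85473750-85473889 on the plus strand, chr19:53529055-53529144 on the plus strand, chr17:26508473-26508622 on the minus strand and chr15:101266766-101266845 on the plus strand.
Fos: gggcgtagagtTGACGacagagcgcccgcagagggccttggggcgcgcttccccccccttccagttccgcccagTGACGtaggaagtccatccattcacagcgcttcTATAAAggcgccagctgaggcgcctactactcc
Dusp5: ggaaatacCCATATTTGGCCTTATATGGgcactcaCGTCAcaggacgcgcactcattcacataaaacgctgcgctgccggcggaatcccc
Dusp1: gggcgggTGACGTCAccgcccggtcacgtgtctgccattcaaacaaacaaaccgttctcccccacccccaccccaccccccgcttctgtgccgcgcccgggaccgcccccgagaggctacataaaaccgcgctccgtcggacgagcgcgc
Nr4a1: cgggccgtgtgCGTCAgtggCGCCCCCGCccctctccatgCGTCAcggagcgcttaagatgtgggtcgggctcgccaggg

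Levels per length differed widely between the genes in both groups. In deposited FPKM (fragments relative to transcript length and library size), the most abundant were Dusp4, Jund, Klf6, Jun and Sik1, each with a mean above 10 over the 6 libraries. Jund is ranked here by its entry on chromosome 8 alone. Added to its copy on an alternate sequence it had a mean of 80.9 FPKM, above Dusp4. The same reads may count in both entries, so its place against Dusp4 is uncertain. Dusp4, which encodes a nuclear phosphatase that inactivates the kinases ERK and JNK, was at 25.7 ± 3.38 FPKM in the knockdown and 22.9 ± 2.42 FPKM in the control (SD, n = 3 each). Klf6, a zinc finger factor gene, was at 14.4 ± 0.997 FPKM in the knockdown and 13.8 ± 0.574 FPKM in the control. Jun, the main partner of Fos in the AP-1 dimer, was at 14.3 ± 2.66 FPKM in the knockdown and 13.6 ± 0.735 FPKM in the control. Sik1, a kinase of the AMPK family that restrains CREB coactivators, was at 10.6 ± 1.74 FPKM in the knockdown and 10.8 ± 0.983 FPKM in the control.

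The genes most used as markers of recent neuronal firing were much lower. Fos was at 1.88 ± 0.0737 FPKM in the knockdown and 2.07 ± 0.273 FPKM in the control. Egr1 was at 1.34 ± 0.240 FPKM in the knockdown and 1.73 ± 0.539 FPKM in the control. Arc, whose protein acts at synapses, was at 0.714 ± 0.101 FPKM in the knockdown and 0.662 ± 0.119 FPKM in the control. Fosb, Fosl1, Egr2, Egr3 and Egr4 had means below 0.1 FPKM over the 6 libraries. Fosl1 had 0, 5 and 6 counts in knockdown replicates 1, 2 and 3, against 5, 1 and 1 in control replicates 1, 2 and 3. A count of 0 allows up to 0.0689 CPM in knockdown replicate 1, for counting error only. Egr4 had 2, 8 and 10 counts in the knockdown, against 10, 9 and 1 in the control. Both genes fell below the filter of the count test. In limma on log2(FPKM + 0.1) with no filter the difference, knockdown minus control, was -0.02 for Fosl1 and 0.00768 for Egr4, with an adjusted p of 1 for each.

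**Figure D1:**
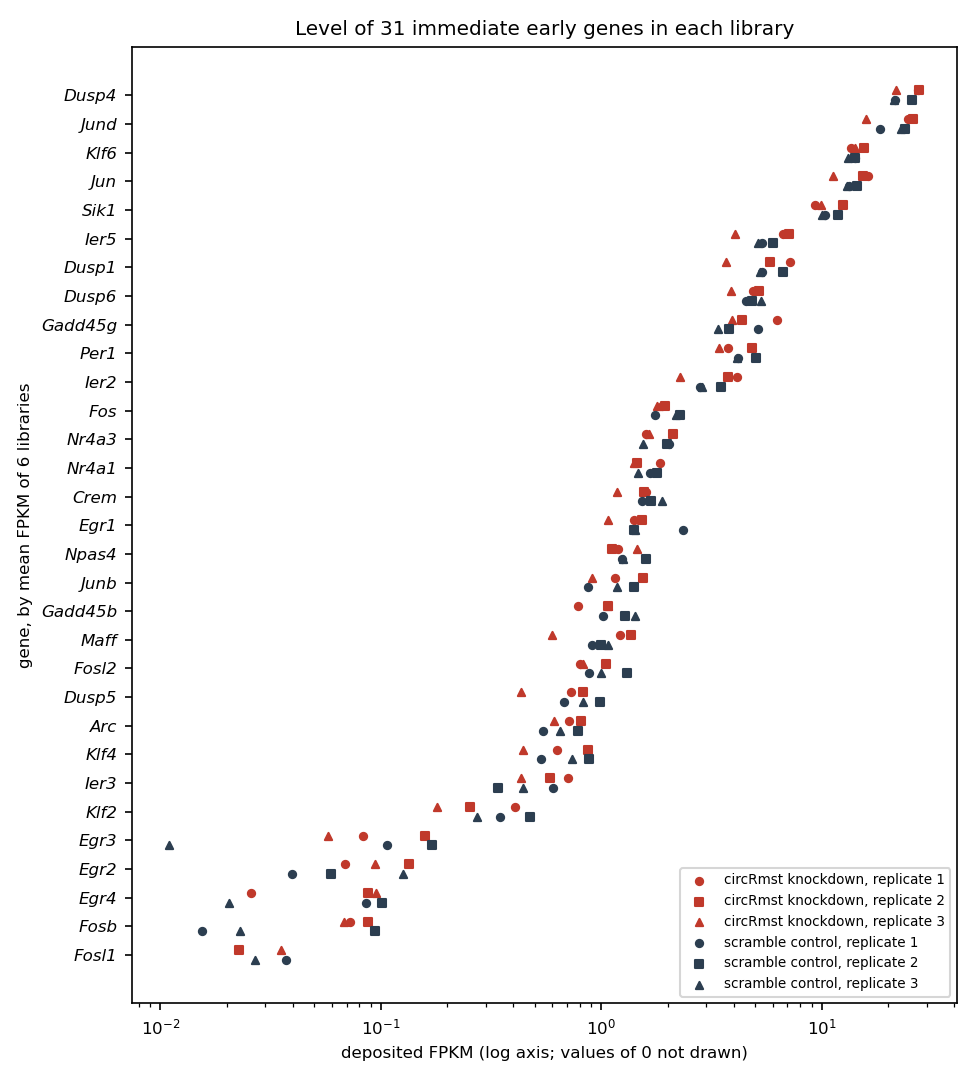
Deposited FPKM (log axis) of the 31 immediate early genes, ordered by their mean over 6 libraries, with knockdown libraries in red above control libraries in dark blue and a marker shape for each replicate number. Mean levels run from 0.0204 FPKM for Fosl1 to 24.3 FPKM for Dusp4, and knockdown and control points lie close together for most genes above 1 FPKM. Jund, Egr2 and Ier3 are drawn without their copies on alternate sequences.

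No immediate early gene differed between knockdown and control at the threshold. In edgeR's quasi-likelihood test 0 of the 27 tested were higher and 0 were lower at an adjusted p under 0.05, where the background over all 17439 genes was also 0% in each direction. At an unadjusted p under 0.05 there were 0 of 27, against 1.10% of all genes. Limma voom also called 0 of 27, with 0 at an unadjusted p under 0.05, and DESeq2 called 0, with 1, Egr1, at an unadjusted p under 0.05, against 0.615% of all genes. Without circRmst knockdown replicate 3, edgeR still called 0 but had Npas4, Ier5 and Dusp4 at an unadjusted p under 0.05, against 2.55% of all genes. There were Fosb and Egr1 without control replicate 2, against 1.38% of all genes, and Egr1 without control replicate 3, against 1.11%. Leaving out any of the other 3 libraries gave none. The median log2 fold change, knockdown over control, was -0.03 over the 27 genes and -0.00603 over all genes tested. Of the 27, 10 lay above 0 and 17 below, against 8390 above and 9049 below of all genes tested. The groups overlapped in every one of the 27. Over all genes, 2.28% had all knockdown libraries above all control libraries and 2.92% had all of them below.

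The intervals say how large a change could have been missed in the fit with group alone. Any differences between the replicate numbers are part of their width. For 23 of the 27 genes the 95% interval of the fold change stayed inside a 2-fold change up or down, against 81.6% of all genes tested. Within a 1.5-fold change there were 14, for which the share of all genes was not worked out. The exceptions at 2-fold were Fosb, Egr3, Klf2 and Ier3, all with a mean under 1 CPM. From a mean of 1 CPM upwards, the median interval reached 0.39 log2 units to either side for the 23 immediate early genes, against 0.29 for all 14501 genes, which were not matched to them on abundance. It was narrowest for Klf6, at 0.20, and among genes of at least 1 CPM Dusp5, at 0.59, was widest.

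**Figure D2:**
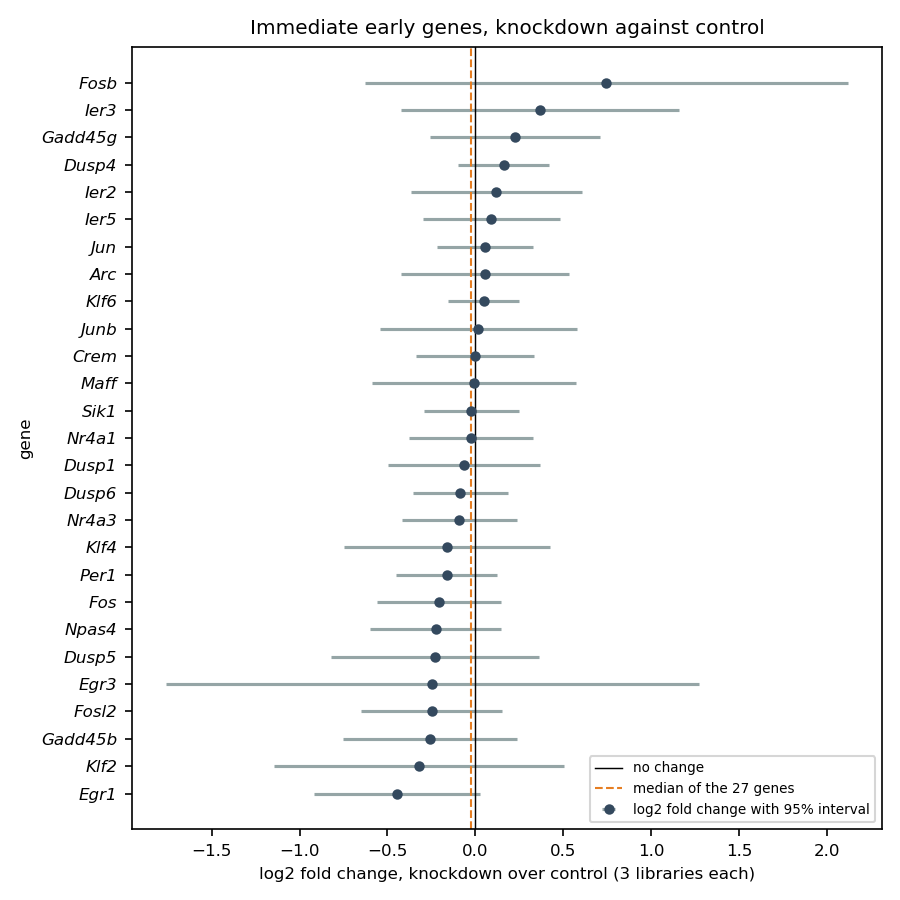
Log2 fold change, knockdown over control, of the 27 tested immediate early genes, with 95% intervals from edgeR's fit on 3 libraries each. Every interval contains 0, and the widest belong to Egr3 and Fosb, which had few counts.

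Among the AP-1 subunits, whose Fos and Jun proteins pair to bind DNA, 5 of 7 were tested and their median log2 fold change was 0.02, between -0.25 for Fosl2 and 0.74 for Fosb. Fos had 6.64, 7.08 and 6.71 CPM in knockdown replicates 1, 2 and 3, against 6.63, 8.64 and 8.31 CPM in control replicates 1, 2 and 3. The knockdown libraries lay close together near the lowest control library, and the log2 fold change was -0.21 ± 0.16 (SE). Fosl2, a Fos relative without the strong activation domain of Fos, had 8.36, 11.0 and 9.10 CPM in the knockdown, against 9.25, 14.1 and 10.4 CPM in the control. Its groups overlapped, though the knockdown was the lower at each replicate number, and its log2 fold change was -0.25 ± 0.18 (SE, unadjusted p = 0.201 and adjusted p = 1.00 in edgeR). Jun had 84.6, 77.1 and 60.6 CPM in the knockdown, against 69.3, 75.7 and 68.9 CPM in the control. The knockdown libraries spanned all the control libraries, and the log2 fold change was 0.05 ± 0.12 (SE). Junb, a Jun relative with weaker activity, ran from 2.63 to 4.15 CPM in the knockdown and from 2.49 to 4.14 CPM in the control. Fosb had 15, 11 and 13 counts in the knockdown, against 2, 15 and 4 in the control, so its log2 fold change of 0.74 ± 0.62 (SE) rested on a pair of control libraries with almost no counts. It was 0.26 without control replicate 1 and 1.83 without control replicate 2.

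Jund, the Jun family gene known for steady expression, and Egr2 had 0 counts in all 6 libraries, and this did not match their FPKM. The tables list both a second time, as Jund_1 and Egr2_1 on alternate sequences of the same assembly, also with 0 counts. Among genes with such a copy and a mean of at least 5 FPKM, 119 of 350 (34.0%) had 0 counts in every library, against 83 of 7573 (1.10%) without a copy. The sources used here do not give how reads that match several places were counted. In FPKM the Jund entry on chromosome 8 (chr8:70697739-70700616, GRCm38) had 24.8, 25.8 and 15.9 in knockdown replicates 1, 2 and 3, against 18.4, 23.8 and 22.9 in the control. Its copy Jund_1 had 43.4, 67.5 and 32.3 FPKM in the knockdown, against 53.7, 71.2 and 85.8 FPKM in the control. Added up, Jund was at 69.9 ± 22.6 FPKM in the knockdown and 91.9 ± 18.5 FPKM in the control (SD, n = 3 each). This sum stood above every other gene of the list, but the same reads may count in both entries, so that rank is uncertain. The groups overlapped, with a log2 difference of -0.43 (exact permutation test on log2(FPKM + 0.1), two-sided p = 0.2, where 0.1 is the smallest that 3 against 3 can give). Egr2 with its copy summed to 0.331 ± 0.151 FPKM in the knockdown and 0.313 ± 0.234 FPKM in the control (exact permutation p = 0.8). Ier3, which has 2 copies at 0 counts, is uncertain for the same reason.

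The Egr genes encode zinc finger factors that carry the growth factor signal to later targets. Egr1 had the smallest p of the 27 genes against the group. It had 7.03, 7.28 and 5.52 CPM in knockdown replicates 1, 2 and 3, against 12.1, 7.66 and 7.23 CPM in control replicates 1, 2 and 3. Control replicate 1 stood above the other 5 libraries, and the lowest control library lay just below the highest knockdown library. The log2 fold change was -0.45 with a 95% interval from -0.92 to 0.03 (unadjusted p = 0.0620 and adjusted p = 1.00 in edgeR). It was -0.17 without control replicate 1 (unadjusted p = 0.398), -0.54 without control replicate 2 (unadjusted p = 0.0488) and -0.57 without control replicate 3 (unadjusted p = 0.0349). With no filter on low counts edgeR gave -0.44 and an unadjusted p of 0.0195, and no fit called the gene after adjustment. Egr3 had 16, 30 and 12 counts in the knockdown, against 22, 44 and 2 in the control. Replicate 2 was the highest in both groups, and its interval reached from -1.76 to 1.27.

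Among the other transcription factor genes, 8 of 8 were tested, with a median log2 fold change of -0.06 and a range from -0.32 for Klf2 to 0.05 for Klf6. Npas4, a factor gene that in neurons answers to calcium entry, had 25.3, 22.7 and 36.5 CPM in the knockdown, against 30.3, 36.8 and 31.7 CPM in the control. A low pair and a high library made up the knockdown, and the log2 fold change was -0.23 ± 0.17 (SE), or -0.45 without circRmst knockdown replicate 3. The count level of Npas4 is uncertain. CPM per kilobase of exon (GENCODE M21) came to 5.64 times its FPKM, whereas in the other 26 tested genes this ratio ran from 0.685 to 1.76. Its RefSeq gene spans 19087 bases (chr19:4984353-5003439, GRCm38), against 5962 bases in GENCODE M21. In FPKM, Npas4 was at 1.25 ± 0.178 in the knockdown and 1.37 ± 0.205 in the control (SD, n = 3 each).

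The orphan nuclear receptor genes Nr4a1 and Nr4a3 are relatives of Nr4a2, the Nurr1 gene that dopamine neurons need. Nr4a1 ran from 7.60 to 10.2 CPM in the knockdown and from 8.38 to 10.2 CPM in the control, a log2 fold change of -0.03 ± 0.16 (SE). Nr4a3 ran from 15.6 to 20.0 CPM in the knockdown and from 15.2 to 20.4 CPM in the control, with -0.09 ± 0.15. Nr4a2 itself, which is not in the list, had 51.8, 35.3 and 48.0 CPM in the knockdown, against 56.9, 37.7 and 34.8 CPM in the control, with 0.06 ± 0.19. Crem, which encodes CREB-like activators and the repressor ICER, had -0.00 ± 0.15 (SE) and an interval from -0.34 to 0.34, and ran from 7.43 to 8.63 CPM in the knockdown and from 7.12 to 8.81 CPM in the control. In FPKM, Crem was at 1.45 ± 0.231 in the knockdown and 1.70 ± 0.185 in the control (SD, n = 3 each). The sign of its fold change differed from the main fit in 9 of the alternative fits. Klf6 had 99.0, 109 and 106 CPM in the knockdown, against 103, 105 and 96.3 CPM in the control, and had the narrowest interval of the 27. Maff, a small Maf factor gene, ran from 2.34 to 4.73 CPM in the knockdown and from 3.46 to 4.22 CPM in the control. Klf2 and Klf4, zinc finger factor genes also known from blood vessels, had log2 fold changes of -0.32 ± 0.37 and -0.16 ± 0.27.

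The MAP kinase phosphatase genes, which are induced by the kinases they switch off, had a median log2 fold change of -0.08 over 4 of 4 tested. Dusp4 had the highest CPM of the 27 tested genes, which do not include Jund, with 135, 129 and 107 CPM in knockdown replicates 1, 2 and 3, against 104, 124 and 103 CPM in control replicates 1, 2 and 3. It lay above its control at each replicate number, yet the groups overlapped, and the log2 fold change was 0.16 ± 0.12 (SE, unadjusted p = 0.199 and adjusted p = 1.00 in edgeR). Dusp1, induced by many kinds of stress, had 24.0, 19.6 and 13.0 CPM in the knockdown, against 18.5, 22.7 and 18.0 CPM in the control. The knockdown held both its highest and its lowest library. Dusp6, specific for ERK, had a log2 fold change of -0.09 ± 0.12, and Dusp5, which holds ERK in the nucleus, had -0.23 ± 0.27.

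Arc and the 7 remaining genes gave the same picture. Arc ran from 2.96 to 3.95 CPM in the knockdown and from 2.85 to 3.99 CPM in the control, a log2 fold change of 0.05 ± 0.22 (SE). Per1, a clock gene that light and cyclic AMP also induce, ran from 33.5 to 43.2 CPM in the knockdown and from 38.7 to 46.5 CPM in the control, with -0.16 ± 0.13. Sik1 ran from 78.1 to 102 CPM in the knockdown and from 82.5 to 101 CPM in the control, with -0.02 ± 0.12. Gadd45b and Gadd45g, genes of the growth arrest and DNA damage family, had values of opposite sign, -0.26 ± 0.22 and 0.23 ± 0.22. The Ier genes had 0.12 ± 0.22 for Ier2, 0.37 ± 0.36 for Ier3 and 0.09 ± 0.18 for Ier5. Compared by replicate number, 3 of the 27 genes lay above the control at each number, Ier3, Dusp4 and Gadd45g, against 8.87% of all genes. There were 5 that lay below it at each number, Fosl2, Egr1, Dusp5, Gadd45b and Per1, against 10.4% of all genes. The p-values against the group given above come from fits with group alone, which do not compare number by number.

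The libraries of a group differed from each other in a way that ran across many of the 27 genes. Replicate 2 was the highest library of both groups in 13 of the 27 (48.1%), against 14% of all genes tested (2435 of 17439). These were Fos, Fosl2, Junb, Egr3, Arc, Ier5, Dusp5, Klf4, Klf6, Gadd45b, Sik1, Maff and Per1. Replicate 1 was highest in both groups in Ier3 and Gadd45g, against 13.9% of all genes, and replicate 3 in Crem alone, against 10.9%. Klf4 had 3.12, 4.58 and 2.48 CPM in knockdown replicates 1, 2 and 3, against 2.93, 4.52 and 3.92 CPM in control replicates 1, 2 and 3. Per1 had 34.4, 43.2 and 33.5 CPM in the knockdown, against 39.2, 46.5 and 38.7 CPM in the control. In both genes the libraries numbered 2 stood above the rest of their group. Gadd45g went another way, with 11.2, 7.69 and 7.05 CPM in the knockdown, against 9.32, 6.77 and 6.04 CPM in the control, so that replicate 1 was the highest of each group. The genes in these sentences were picked after their values were seen. Genes that share a stimulus are not independent of each other, so the share carries no test.

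**Figure D3:**
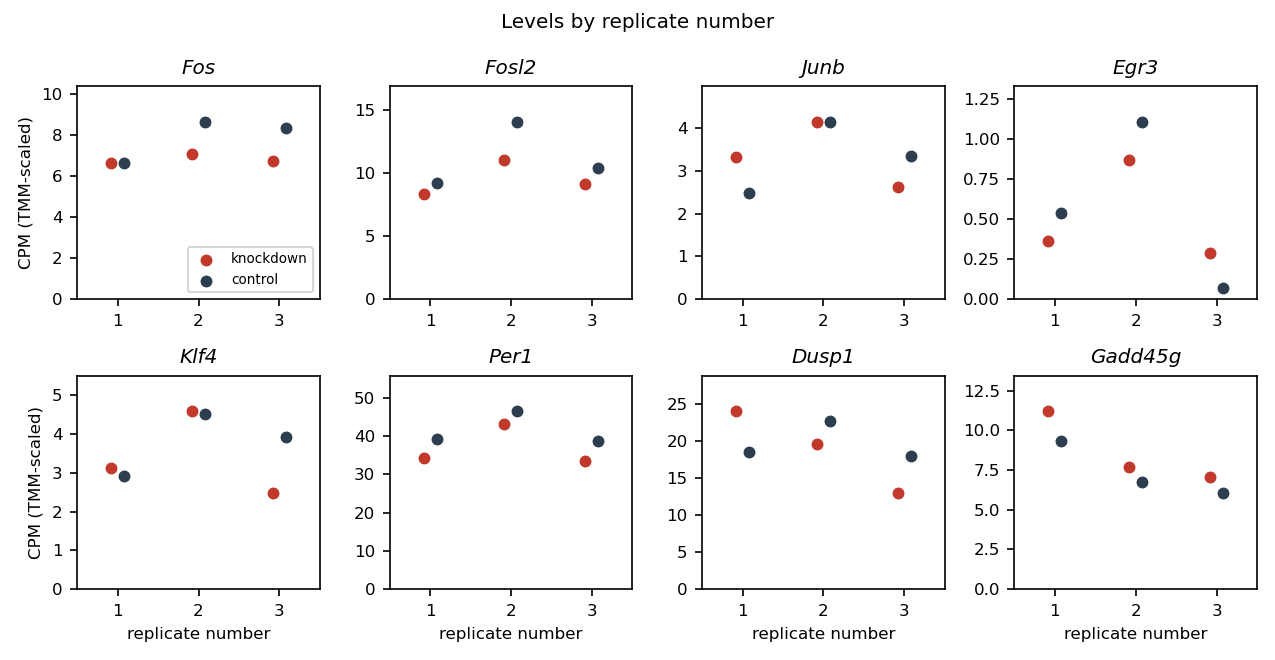
TMM-scaled CPM of 8 immediate early genes by replicate number, knockdown in red to the left of control in dark blue, 1 point per library. Fosl2, Junb, Egr3, Klf4 and Per1 are highest at number 2 in both groups, Gadd45g at number 1, and Dusp1 at different numbers in each group.

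None of these differences by number passed the test over all genes. In edgeR's quasi-likelihood F-test of the replicate number, with the group as a term, 0 of the 27 genes had an adjusted p under 0.05, where the background was 0.155% of all genes, or 27 of 17439. At an unadjusted p under 0.05 there were 5 of 27, Fosl2, Egr3, Ier5, Gadd45g and Sik1, against 8.94% of all genes. DESeq2's likelihood ratio test and limma voom also called 0 of them, with 3 and 6 at an unadjusted p under 0.05, against 1257 of 28463 genes in DESeq2 and 1651 of 17439 in voom. The smallest adjusted p was that of Gadd45g, 0.371, with a log2 difference of -0.50 between numbers 2 and 1 and of -0.65 between numbers 3 and 1. Without a filter on low counts, where 741 of 28463 genes were called, Egr3 was called as well. Leaving out a library moved the background count to between 45 and 524 genes, while no immediate early gene was called in any of these 6 fits.

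Over the list, knockdown replicate 3 stood lowest. The median deviation of the 27 genes from their mean over 6 libraries was 0.02, 0.15 and -0.21 log2 units in knockdown replicates 1, 2 and 3, against -0.04, 0.19 and -0.07 in control replicates 1, 2 and 3. Over all genes the medians lay within 0.01 of 0. Knockdown replicate 3 was the lowest of the 6 libraries in 11 of the 27 genes, against 17.3% of all genes, among them Jun, Egr1, Ier2, Ier5, Dusp1 and Maff. Control replicate 2 was the highest of the 6 in 11 of the 27, against 11.6% of all genes. Replicate 3 was the lowest library of both groups in 9 of the 27, against 10.5% of all genes.

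**Figure D4:**
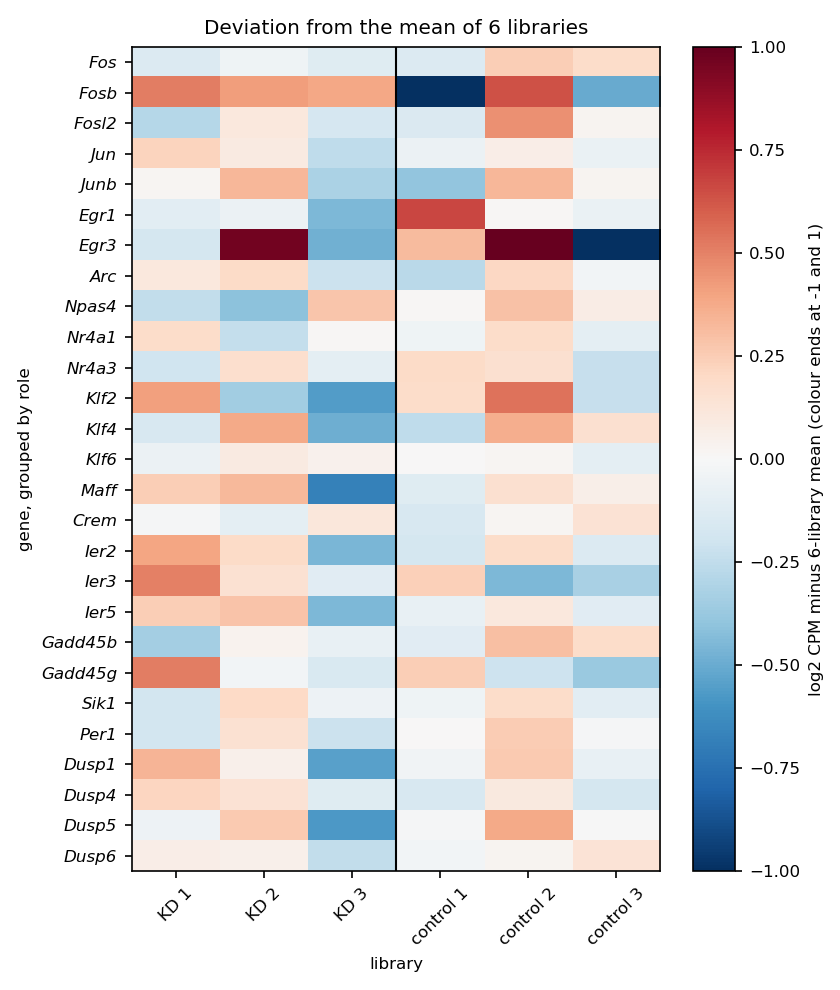
Deviation of log2 CPM from the mean of the 6 libraries for the 27 tested genes, grouped by role, with the knockdown libraries to the left of the control libraries. Red cells, above the mean, are most common in replicate 2 of both groups, and blue cells in knockdown replicate 3, whose median deviation was -0.21.

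Other measures moved with the replicate number. The 27 genes called by number included several transcription factor genes, which are given as a description because that test chose them. Lef1, a factor gene of Wnt signalling, had 4.96, 23.7 and 1.91 CPM in knockdown replicates 1, 2 and 3, against 6.32, 23.8 and 1.98 CPM in control replicates 1, 2 and 3. Zic1, a factor gene of the dorsal neural tube, had 39.4, 16.1 and 2.08 CPM in the knockdown, against 42.8, 15.3 and 2.19 CPM in the control. In both genes libraries of the same number lay close together across the groups, and Dmbx1, Barhl1, Pou4f2 and Tfap2b were, like Lef1, highest at number 2. Dopamine neuron markers summed to 725, 782 and 875 CPM in the knockdown, against 744, 774 and 870 CPM in the control. They were lowest at number 1 and highest at number 3 in each group. Red blood cell markers were highest at number 2 in each group, at 39.7 CPM in the knockdown and 27.5 CPM in the control, where number 3 had 26.7 CPM. This sum joins opposite courses. At number 3, Hbb-bs was lowest, with 4.35 CPM in the knockdown and 2.77 CPM in the control. Hbb-y was highest there, with 19.7 and 17.6 CPM. Markers of dividing cells summed to 347, 295 and 312 CPM in knockdown replicates 1, 2 and 3, against 447, 295 and 371 CPM in control replicates 1, 2 and 3. Markers of the oligodendrocyte lineage summed to 491, 430 and 529 CPM in the knockdown, against 639, 438 and 688 CPM in the control. Both lists were lowest at number 2 in each group, as were astrocytes and radial glia. Markers of pericytes and meningeal fibroblasts were highest there, at 180, 233 and 152 CPM in the knockdown, against 160, 225 and 188 CPM in the control. Endothelial markers were highest there too, with 24.8 CPM in knockdown replicate 2 and 26.2 CPM in control replicate 2. Of the 10 endothelial markers, 6 passed the filter and Cldn5 was listed at 0, with a copy on an alternate sequence. The ribosomal RNA gene Rn28s1 took 4.49%, 3.17% and 1.01% of counts in knockdown replicates 1, 2 and 3, against 4.02%, 2.90% and 2.98% in the control. The part of cell make-up or RNA quality in the levels of the immediate early genes was not tested.

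The genes around the immediate early response did not differ between the groups at the threshold either, with 0 called in each list by edgeR. Of 32 delayed and other activity-induced genes, 13 lay above the control and 19 below, with a median log2 fold change of -0.03. Those with the smallest p were Myc, with -0.27 ± 0.13 (SE), and the p53 target Cdkn1a, with 0.21 ± 0.11. Bdnf, the neurotrophin gene that activity induces in neurons, had 10.3, 11.5 and 13.0 CPM in the knockdown, against 11.5, 12.2 and 13.6 CPM in the control. Of 40 upstream kinases and transcription factors, 18 lay above and 22 below, with a median of -0.00699. There Camkk2, a kinase gene of the calcium pathway, had 0.17 ± 0.09, and Mef2d, a factor gene of activity-regulated transcription, had -0.17 ± 0.10. Of 17 tested genes of ERK output and feedback, 7 lay above and 10 below, with a median of -0.02. Of 25 tested relatives of the list's gene families, 12 lay above and 13 below, with a median of -0.00220. Of 13 tested genes of heat shock and dissociation stress, 6 lay above and 7 below, with a median of -0.00811. Hspa1a and Hspa1b, the inducible Hsp70 genes, were listed at 0 counts and have copies on alternate sequences. By replicate number, 0 genes of these 5 lists were called, and the genes with the smallest p in edgeR's F-test went different ways. The neuronal pentraxin gene Nptx2 was, like Klf4, highest in replicate 2 of both groups. It had 28.7 CPM there in the knockdown and 29.0 CPM in the control. Rps6ka2, Camk2b and Ier5l were also highest in replicate 2 of both groups. Etv1, Fgfbp3, Hsp90aa1 and Dnaja1 were lowest there, and Etv1 had 6.21 CPM in the knockdown and 6.14 CPM in the control. Trib1 and Maf were lowest in replicate 3 of both groups.

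The marker lists are given for completeness. No marker was called between the groups. The median log2 fold change was -0.00291 over 14 markers of neurons in general, -0.02 over 12 of dopamine neurons and -0.01 over 12 of astrocytes and radial glia. It was -0.27 over 11 of the oligodendrocyte lineage, -0.27 over 9 of microglia and macrophages, and -0.23 over 12 of dividing cells. It was -0.06 over 6 endothelial markers, 0.04 over 9 of pericytes and meningeal fibroblasts and 0.36 over 4 of red blood cells. Oligodendrocyte lineage markers had 0 above the control and 11 below, microglia and macrophages 2 and 7, and dividing cells 2 and 10. Of the 12 microglia and macrophage markers, Aif1 and Trem2 were listed at 0 counts in every library. That list was low, with a sum of 28.8 to 30.7 CPM in the knockdown and 29.5 to 35.1 CPM in the control. Red blood cell markers had 4 above and 0 below. The other lists ran from 4 above and 8 below, for dopamine neurons, to 6 above and 3 below, for pericytes and meningeal fibroblasts. No list was tested as a set. By replicate number, 2 markers were called, the haemoglobin genes Hbb-bs and Hbb-y, which went opposite ways at number 3.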

How the data were processed

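Whole-number counts per gene, 1 table per library, were deposited by the authors, as were FPKM values whose columns are those of Cufflinks, per the file headers. The submitters' processing notes name Cufflinks 2.2.1, bcl2fastq 2.20, DESeq2 and the build GRCm38 (mm10). The sources used here do not give the aligner, the counting tool, its strand setting or the treatment of reads that match several places. Without the strand setting, Egr2, Dusp6, Sik1, Crem and Fosl1, which overlap other annotated genes, are uncertain. The tables list 2379 genes a second time on alternate sequences.

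From the counts, edgeR 4.0.16 (R 4.3.3) fitted a quasi-likelihood model over all genes kept by filterByExpr, scaled by TMM, with group alone or, for the F-test of the replicate number, group and number. P was adjusted by Benjamini-Hochberg over all genes tested, with a threshold of 0.05. FPKM entries with a failed estimate in a library were left out. The median deviations use log2 CPM with a prior count of 2. Alternatives were other scalings and filters, DESeq2 1.42.0, limma 3.58.1 (voom, and log2 FPKM), a replicate block and leaving out each library. Adding up copies and the other scalings of the highest replicate were added after seeing the data.

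The members, lists and tests were chosen with earlier results of these data known. All 31 members are accounted for. Values per library follow the rule of the smallest p against the group and the highest FPKM, beside genes picked after their values were seen. P-values measure the spread between these libraries. No pair of replicates agreed within sampling noise (chi-square per degree of freedom 12.8 to 91.4), so none looked like a repeat deposit of another. This does not show that the libraries are independent.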

Additional observations from a re-analysis of the deposited data

How the results depend on the processing

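No immediate early gene was called between the groups under any of the 17 alternatives. Their median log2 fold change was -0.03 and ranged from -0.13 to 0.07 when 1 library was left out. The sign of a gene's fold change, never called, changed in 38 of 450 comparisons with an alternative, and 13 of the 27 genes kept theirs throughout. Over all genes, edgeR called 11 between the groups without a filter on low counts and DESeq2 called 1, against 0. The replicate number does not mark a shared culture in the labels. Deviations of libraries with the same number correlated at 0.22, 0.23 and 0.04, against -0.26 to 0.07 between libraries of different numbers. Some genes called by number, such as Zic1 and Lef1, had near values in libraries of the same number, but that test chose them. Whether equal numbers share a culture was not decided. The main test did not pair them, and a replicate block was fitted as an alternative. With a replicate block edgeR called 0 genes, 0 of them immediate early genes, and Egr1 alone of these had an unadjusted p under 0.05.

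By replicate number, 27 genes were called. There were 741 without a filter on low counts (Egr3 the 1 member), 225 with DESeq2, 73 with the number alone, and 16 and 17 on log2 FPKM with a pseudocount of 1 and with no filter. Leaving out a library gave 45 to 524, and the cause was not tested. In these fits a number is left with 1 library, which is assumed to vary like the others. Replicate 2 was highest in both groups in 11 to 13 of the 27 genes under the other scalings and in FPKM, with 10.4% to 17.3% of all genes. Among genes of at least 10 CPM it was so in 5 of 11, against 16.5% of all 10270 such genes. Low counts limit Fosb, Fosl1, Egr3 and Egr4, and the count tables hold no values for Jund and Egr2.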
